A study of Rattus norvegicus with 6 samples.

Results

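The immediate-early transcription factors are DNA-binding proteins, and regulators that act with them, whose genes are switched on within minutes of a growth factor, stretch, stress or calcium signal, without any new protein having to be made first. FOS proteins pair with JUN proteins to form the dimer AP-1, the EGR proteins are zinc finger factors that bind GC-rich sites, and NR4A1 is an orphan nuclear receptor. In vascular cells these genes are best known for their brief induction by injury, stretch and growth factors. Much of the signal reaches them through 2 kinds of promoter element, the CArG box bound by serum response factor (SRF) and the cyclic AMP response element (CRE) bound by CREB and ATF proteins.

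The 10 genes described here, Fos, Fosb, Jun, Junb, Egr1, Egr2, Egr3, Nr4a1, Ier2 and Atf3, were taken by symbol from the 17833 genes of a bulk RNA-seq table of rat pulmonary veins (PVs). They were chosen by a look at the same contrast that is described below, so their own values are given as a description, with no test. The study set up a banding model of pediatric PV stenosis in neonatal rats and tested the drug sirolimus in it, and these libraries compare banded with sham-operated veins. Wild-type Sprague-Dawley pups underwent bilateral pulmonary vein banding (BPVB, n = 3), in which ligatures narrow the PVs of both lungs, or a sham operation (n = 3), at postnatal day 1 (P1). Both groups were cooled for anesthesia and had the chest opened. In the sham group the veins were exposed and a suture was placed and taken out again, so that no band remained. PVs draining the right upper lobe were collected at P21, the only time measured in these libraries.

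Values are FPKM, fragments of a gene scaled by its length and by the size of the library. The library totals recovered from the values were 26078189 to 29725808 fragments in the BPVB group and 23439506 to 23821184 in the sham group, the mean of the first being 1.16 times that of the second. Replicates of a group differed by more than counting noise in every pair of libraries, so none was counted as a duplicate. Defining genes of the expected tissue were all present, and no marker gene of the 7 cell type lists was at 0 in any library.

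Promoter sequences were available in the RefSeq tables (assembly GRCr8) for 6 of the 10 genes, Fosb, Junb, Egr1, Egr2, Nr4a1 and Ier2. Each window holds the 250 bases before the transcript start that the table uses. That start is the outer end of the RefSeq gene for Junb, Egr1 and Ier2. It lies inside the gene for the other 3, 322 bases from the outer end in Fosb, 760 in Egr2 and 12985 in Nr4a1, so these windows precede an internal start, and the windows at their outer ends were not searched. The windows of 4 genes are shown, because each holds a CArG box, the palindromic CRE or an EGR motif, and because 1 of the 4, Egr2, did not follow the other 3 in the banded veins. Capitals mark CArG boxes and CRE cores in Egr1 and Egr2, the palindromic CRE in Ier2, and CRE cores and an EGR-binding motif in Nr4a1. The sequences run 5′ to 3′ on the strand of the gene, from chr18:26736828-26737077 (plus strand), chr20:21054442-21054691 (minus strand), chr19:40399123-40399372 (plus strand) and chr7:134259888-134260137 (plus strand), in this order.
Egr1: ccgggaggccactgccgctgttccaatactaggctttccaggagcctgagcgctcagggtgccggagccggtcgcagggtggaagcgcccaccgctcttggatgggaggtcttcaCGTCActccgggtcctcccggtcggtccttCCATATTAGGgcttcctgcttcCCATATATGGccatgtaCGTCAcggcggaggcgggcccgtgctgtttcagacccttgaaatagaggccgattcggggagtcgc
Egr2: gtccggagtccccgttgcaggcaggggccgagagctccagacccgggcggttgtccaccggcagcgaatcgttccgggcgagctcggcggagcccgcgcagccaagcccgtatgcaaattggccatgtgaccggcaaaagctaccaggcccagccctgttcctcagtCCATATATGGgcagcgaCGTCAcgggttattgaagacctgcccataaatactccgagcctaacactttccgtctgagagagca
Ier2: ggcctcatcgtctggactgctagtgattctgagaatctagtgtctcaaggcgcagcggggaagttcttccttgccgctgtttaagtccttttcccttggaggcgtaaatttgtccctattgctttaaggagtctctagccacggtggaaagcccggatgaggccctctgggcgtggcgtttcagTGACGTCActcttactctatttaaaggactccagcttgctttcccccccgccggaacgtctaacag
Nr4a1: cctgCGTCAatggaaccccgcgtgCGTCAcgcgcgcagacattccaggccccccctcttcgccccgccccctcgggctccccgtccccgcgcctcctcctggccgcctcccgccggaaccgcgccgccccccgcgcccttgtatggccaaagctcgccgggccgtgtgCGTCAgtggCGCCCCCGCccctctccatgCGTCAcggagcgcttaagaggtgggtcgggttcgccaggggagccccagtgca

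The CArG box was searched by its consensus, on both strands as were all motifs. It was found in 1.5% of the 33469 rat promoter windows of the same length and in 2 of the 6 members' windows. Egr1 held CArG boxes 105 to 96 and 83 to 74 bases before the start. Egr2 held 1, also 83 to 74 bases before its internal start, with the same 10 letters as the nearer box of Egr1. In both promoters the CRE core (TGACG) followed at 66 to 62 bases before the start, on the opposite strand. The palindromic CRE (TGACGTCA, which contains the core) was present in 1.59% of windows and in 1 member, Ier2, 66 to 59 bases before the start. The core itself was found in 18.2% of windows and in 5 of the 6 members, all but Fosb, with 4 copies before the internal start of Nr4a1. An EGR motif (GCGNGGGCG, 4.29% of windows) was found in the window of Nr4a1 alone of the 6, and the AP-1 motif TGANTCA (6.34% of windows) in none. These are matches of letters, not measured binding.

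**Figure D1:**
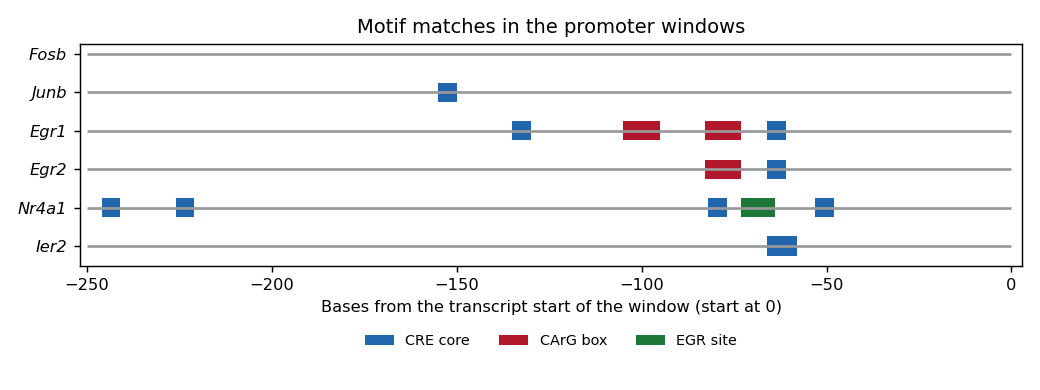
Positions of motif matches in the 250 bases before the start of the 6 members with a promoter window, in bases from the transcript start the table uses (horizontal axis; an internal start in Fosb, Egr2 and Nr4a1), 1 line per gene. Red boxes are CArG boxes, blue boxes CRE cores (the pair in Ier2 overlaps and forms the palindromic CRE), and the green box is the EGR motif of Nr4a1. The Egr1 window and the Egr2 window, the latter before an internal start, have a CArG box and a CRE core at the same distances from these starts.

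In the banded veins, 8 of the 10 genes lay lower than in the sham veins, with no overlap between the libraries of the 2 groups. The exceptions were Atf3, which lay higher in all 3 BPVB libraries, and Egr2, whose groups overlapped. All 10 passed the filter on low values (mean FPKM of at least 0.1). Over all 15150 genes tested, the share with every BPVB library below every sham library was 20.5%, and with every BPVB library above it was 25.2%. The median log2 difference (BPVB minus sham, on the log2(FPKM + 0.5) scale used throughout) was -1.05 over the 10 members and 0.02 over all tested genes. It was below -1 in 5 of them, Fos, Fosb, Junb, Egr1 and Ier2, and in 1.04% of all tested genes. Since the genes were picked on this contrast, nothing is read from these shares. In bulk tissue, fewer cells of a type and less RNA per cell cannot be told apart.

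**Figure D2:**
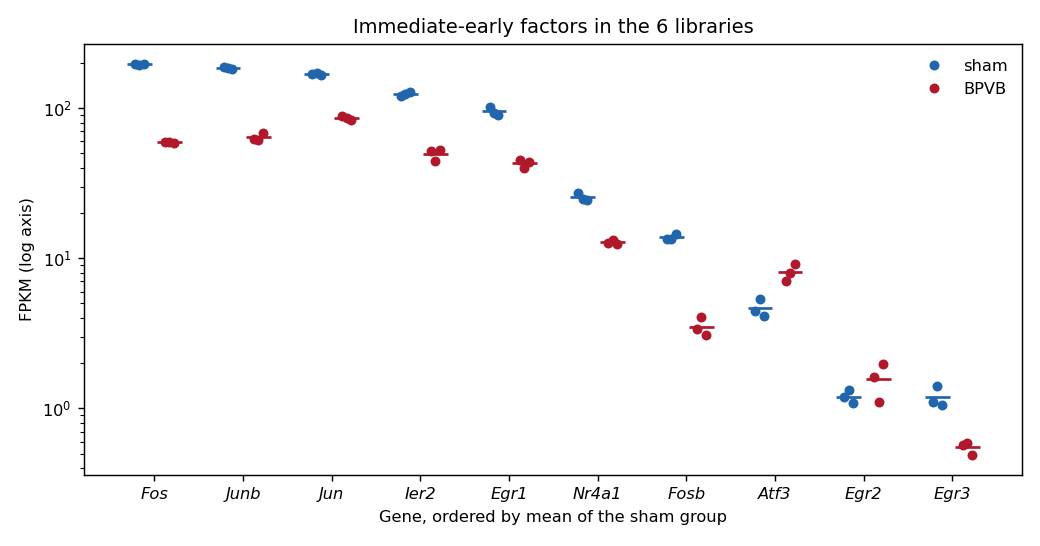
FPKM (vertical axis, log scale) of the 10 members in each of the 6 libraries, sham in blue and BPVB in red, ordered by the sham mean. Points are libraries and horizontal lines are group means (n = 3). The red points lie below the blue ones in 8 genes, above them in Atf3, and overlap with them in Egr2.

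Fos, the AP-1 subunit most often used as a marker of recent stimulation, had 59.6, 59.5 and 58.5 FPKM in the BPVB libraries and 195.9, 192.7 and 198.0 FPKM in the sham libraries. The means were 59.2 ± 0.591 and 195.5 ± 2.63 FPKM (SD, n = 3 each), a ratio of 3.3 (sham over BPVB) and a log2 difference of -1.72 (standard error 0.0281). The standard errors given for the members come from the limma fit, which pools spread across all tested genes, and not from a gene's own values alone. The 3 BPVB libraries were almost level, and their coefficient of variation (CV, 0.999%) was below the 1.97% that counting error alone would give. Fos ranked above 97.7% to 97.8% of all genes by FPKM in the sham libraries and above 92.9% to 93.0% in the BPVB libraries, so it remained among the well-expressed genes of the banded vein.

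Fosb, its close relative, had 3.37, 4.05 and 3.06 FPKM in the BPVB libraries and 13.5, 13.5 and 14.5 FPKM in the sham libraries. Of the 10 members it had the largest ratio, 3.96 (sham over BPVB), with a log2 difference of -1.85 (standard error 0.0987). It also moved furthest in rank, from above 73.0% to 74.6% of all genes in the sham libraries to above 44.7% to 49.2% in the BPVB libraries.

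Jun, the JUN subunit that can also pair with itself, had 88.5, 85.9 and 83.05 FPKM in the BPVB libraries and 168.7, 171.2 and 167.3 FPKM in the sham libraries. This was a ratio of 1.97 (sham over BPVB) and a log2 difference of -0.97 (standard error 0.0321). Junb, a JUN subunit that often restrains the activity of Jun, had 62.5, 61.6 and 68.3 FPKM in the BPVB libraries and 188.7, 185.2 and 180.9 FPKM in the sham libraries. Its ratio was 2.88 (sham over BPVB) and its log2 difference -1.52 (standard error 0.0425). The libraries of a group were close together in both genes, and the gap between groups was wider in Junb.

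Summed over Fos, Fosb, Fosl1 and Fosl2, the FOS family had 77.9 ± 1.84 FPKM in the BPVB group and 222.4 ± 3.37 FPKM in the sham group (SD, n = 3 each), 2.85 times as much in the sham group. Fosl2 supplied 18.2% to 18.7% of the FOS sum in the BPVB libraries and 5.6% to 5.92% in the sham libraries. Its own level was 14.4 ± 0.553 against 12.8 ± 0.508 FPKM (log2 fold change 0.17, adjusted p = 0.0554, limma), so its larger share came with a sum that was smaller. The JUN family (Jun, Junb and Jund) summed to 221.3 ± 2.19 FPKM in the BPVB group and 452.3 ± 4.13 FPKM in the sham group (SD, n = 3 each), a ratio of 2.04. Junb made up 27.9% to 30.5% of that sum in the BPVB libraries and 40.4% to 41.7% in the sham libraries. Jund, which cells make at a fairly steady level, made up 31.2% to 33.2% and 21.1% to 22.3%.

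**Figure D3:**
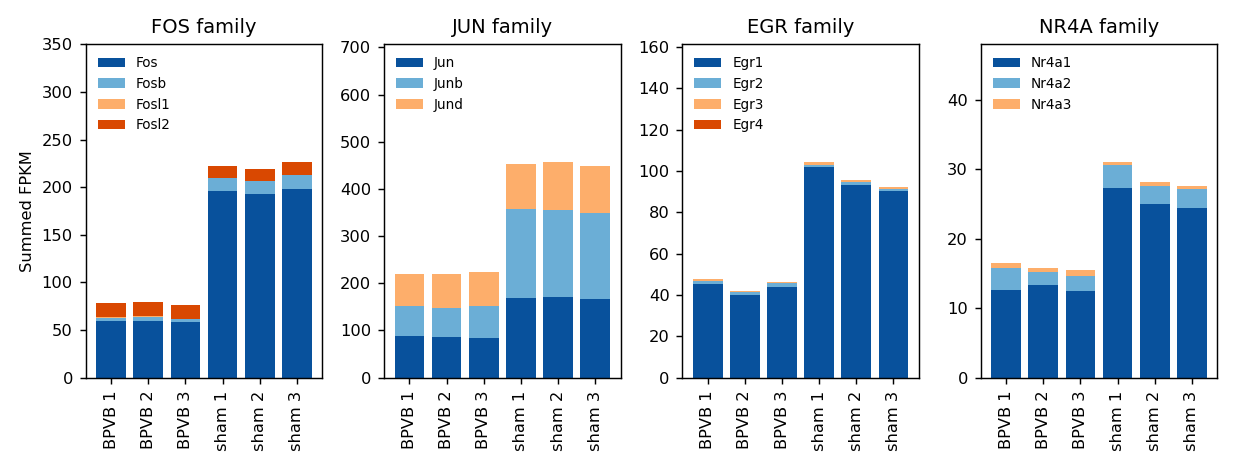
Summed FPKM (vertical axes, starting at 0) of the FOS, JUN, EGR and NR4A families in each of the 6 libraries, 1 bar per library, split by gene (Egr4 and Fosl1 are too low to see). Every sham bar is taller than every BPVB bar, and Fosl2 and Jund take a larger part of the BPVB bars than of the sham bars.

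Egr1, a zinc finger factor induced by shear stress and injury in vessel walls, had 45.3, 40.1 and 43.7 FPKM in the BPVB libraries and 101.8, 93.1 and 90.3 FPKM in the sham libraries. Its ratio was 2.21 (sham over BPVB) and its log2 difference -1.13 (standard error 0.058). Egr3 had 0.574, 0.587 and 0.487 FPKM in the BPVB libraries and 1.11, 1.41 and 1.05 FPKM in the sham libraries. These values rested on 71 to 75 fragments in each BPVB library and 122 to 162 in each sham library. The FPKM ratio of Egr3 was 2.16 (sham over BPVB), and because the gene is so low its log2 difference depended on the pseudocount, -0.68 with 0.5, -0.98 with 0.1 and -0.49 with 1.

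Egr2 was the member that did not separate the groups. It had 1.62, 1.1 and 1.99 FPKM in the BPVB libraries and 1.19, 1.32 and 1.09 FPKM in the sham libraries, from 97 to 220 fragments. One BPVB library lay inside the sham range and the other BPVB libraries lay above it. The log2 difference was 0.26 (standard error 0.171), 0.44 without BPVB replicate 2 and 0.12 without BPVB replicate 3. Egr1 alone supplied 94.6% to 96.0% of the EGR family sum (Egr1 to Egr4) in the BPVB libraries and 97.2% to 97.8% in the sham libraries, and the sum was 45.2 ± 3.0 against 97.5 ± 6.02 FPKM (SD, n = 3 each).

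Nr4a1, the orphan nuclear receptor also called Nur77, had 12.6, 13.3 and 12.5 FPKM in the BPVB libraries and 27.29, 24.99 and 24.46 FPKM in the sham libraries, a ratio of 2.0 (sham over BPVB) and a log2 difference of -0.97 (standard error 0.0584). The groups were well apart. With Nr4a2 and Nr4a3, the NR4A family summed to 16.0 ± 0.537 FPKM in the BPVB group and 28.9 ± 1.83 FPKM in the sham group (SD, n = 3 each). Nr4a3 had a borderline rise (0.798 ± 0.115 against 0.456 ± 0.0911 FPKM, log2 fold change 0.44, adjusted p = 0.0431, limma). It was not called in 8 of 15 alternatives, among them leaving out BPVB replicate 1 or 3 or sham replicate 1 or 3 (adjusted p up to 0.121) and limma-voom (log2 fold change 0.82, adjusted p = 0.0549). A pseudocount of 0.1 gave 0.70 (adjusted p = 0.0519). Nr4a2 had a log2 fold change of -0.25 (adjusted p = 0.315, limma).

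Ier2, a small nuclear protein of the serum-induced set, had 51.5, 44.7 and 52.4 FPKM in the BPVB libraries and 119.7, 123.9 and 128.0 FPKM in the sham libraries. The ratio was 2.5 (sham over BPVB) and the log2 difference -1.32 (standard error 0.0597). Atf3, a stress-induced factor of the ATF/CREB family that often acts as a repressor, went the other way. It had 7.01, 8.0 and 9.21 FPKM in the BPVB libraries and 4.47, 5.31 and 4.13 FPKM in the sham libraries. The ratio was 1.74 (BPVB over sham) and the log2 difference 0.74 (standard error 0.12).

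The order of the levels differed between the groups. In the sham libraries Fos was highest, followed by Junb and Jun, with no overlap between neighbours. In the BPVB libraries Jun was highest, followed by Junb and Fos, again without overlap. Ier2, Egr1 and Nr4a1 came next in both groups, although the BPVB libraries of Ier2 and Egr1 overlapped (44.7 to 52.4 and 40.1 to 45.3 FPKM). Atf3 ranked below Fosb in the sham libraries and above it in the BPVB libraries. Egr2 and Egr3 were lowest and overlapped in the sham libraries (1.09 to 1.32 and 1.05 to 1.41 FPKM), but not in the BPVB libraries.

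The members' median CV within a group was 7.38% in the BPVB group and 4.94% in the sham group, against 6.78% and 6.89% over the 13442 tested genes with a mean of at least 30 fragments. Their median ratio of variance to mean, in fragments, was 6.79 in the BPVB group and 3.87 in the sham group, against 3.51 and 3.42 over those genes. The highest BPVB value fell in replicates 1, 2 and 3 for 3, 3 and 4 of the members and the lowest for 1, 4 and 5. In the sham group the highest fell in replicates 1, 2 and 3 for 3, 4 and 3 of the members and the lowest for 2, 1 and 7, so sham replicate 3 held either the highest or the lowest sham value of every member. The individual values rested on 71 to 12414 fragments per gene and library.

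Markers of other cell types and clock genes moved with the groups. The 10 alveolar epithelial markers summed to 649 to 702 FPKM in the BPVB libraries and 140.0 to 144.1 FPKM in the sham libraries (9 rose and 1 fell). Sftpc, the surfactant protein C gene, supplied 56.5% to 58.4% and 24.99% to 26.49% of these sums, and the other 9 summed to 282 to 292 and 103 to 107 FPKM. Hopx, the 1 that fell, was the largest of the 10 in the sham libraries. It had 59.3 ± 2.58 FPKM in the BPVB group and 70.9 ± 2.33 FPKM in the sham group (SD, n = 3 each). Of the 9 that rose, 8 had a log2 fold change above 1. The 7 macrophage markers summed to 676 to 697 and 224 to 235 FPKM, and all 7 rose. Lyz2, a lysozyme gene that alveolar type 2 cells also express, supplied 85.0% to 86.6% of that sum in the BPVB libraries and 71.0% to 72.0% in the sham libraries, and the other 6 summed to 93.5 to 101.5 and 63.6 to 67.6 FPKM. The 5 neutrophil markers summed to 6.26 to 10.4 and 19.0 to 21.7 FPKM (3 fell and 2 were not called). The 8 atrial cardiomyocyte markers summed to 12740 to 13200 and 17700 to 18110 FPKM (3 rose and 5 fell). Endothelial markers (7 genes) summed to 1034 to 1049 and 1178 to 1185 FPKM, with 5 lower and 2 not called. Smooth muscle markers (6 genes) summed to 3862 to 3912 and 4187 to 4267 FPKM, with 1 higher, 4 lower and 1 not called. Fibroblast markers (5 genes) summed to 5057 to 5093 and 4577 to 4587 FPKM, with 3 higher and 2 lower. The 11 clock genes, which follow time of day, summed to 95.3 to 99.3 FPKM in the BPVB libraries and 372 to 376 FPKM in the sham libraries, 2 being higher and 9 lower. Dbp supplied 11.8% to 12.9% of that sum in the BPVB libraries and 37.0% to 37.9% in the sham libraries. The other 10 clock genes summed to 82.94 to 87.55 and 232.4 to 236.7 FPKM. The part of these shifts in the members' values was not tested. The time of day of collection is not given in the sources used here.

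The rest of the immediate-early program was read from 5 lists of genes that are no members, tested with limma over all 15150 genes. Of all those genes, 17.2% were called higher and 14.3% lower at an adjusted p under 0.05. With a log2 fold change beyond 1 as well, 2.24% were called higher and 1.03% lower.

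Among 20 other immediate-early factors tested (of 21, Egr4 being too low), 8 rose, 5 fell and 7 were not called, with a median log2 fold change of 0.09. Bhlhe40, a helix-loop-helix repressor, fell from 28.0 ± 1.54 FPKM in the sham group to 12.0 ± 0.373 FPKM in the BPVB group (SD, n = 3 each, log2 fold change -1.19, adjusted p = 1.16e-06). Jund fell from 98.3 ± 2.62 to 71.4 ± 2.63 FPKM (log2 fold change -0.46, adjusted p = 3.17e-05). Klf4 (-0.19, adjusted p = 0.00501), which represses smooth muscle genes, and Irf1 (-0.20, adjusted p = 0.0246), an interferon-responsive factor, fell by small amounts. Cebpb (37.2 ± 2.6 against 20.7 ± 2.25 FPKM, log2 fold change 0.83, adjusted p = 7.86e-05) and Cebpd (47.9 ± 3.95 against 27.1 ± 3.02 FPKM, log2 fold change 0.81, adjusted p = 0.00012), both factors of acute inflammation, rose. So did Maff (0.46, adjusted p = 0.00514), a small MAF protein, and the FOS relative Fosl1 (0.823 ± 0.326 against 0.255 ± 0.137 FPKM, log2 fold change 0.79, adjusted p = 0.0228). Fosl1 and Irf1 were not called once BPVB replicate 1, BPVB replicate 2, sham replicate 1 or sham replicate 3 was left out (adjusted p up to 0.0768 and 0.0836), nor with limma-voom on the recovered fragments. The log2 fold change of Fosl1, a low gene, was 0.53 with a pseudocount of 1, 1.38 with 0.1 and 1.65 with limma-voom (adjusted p = 0.0509). The number that rose was 4 without BPVB replicate 1 or sham replicate 3 and 5 without BPVB replicate 3, and the number that fell was 3 without sham replicate 1 or 3.

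The feedback inhibitors, which are switched on by the same signals and shut them off, moved in both directions. Of 23 tested, 9 rose, 7 fell and 7 were not called (median log2 fold change 0.13). Socs3, which blocks cytokine receptor signalling, fell from 13.6 ± 0.178 to 5.74 ± 0.342 FPKM (SD, n = 3 each, log2 fold change -1.18, adjusted p = 3.15e-06). Btg2, an antiproliferative gene, fell from 131.7 ± 3.58 to 65.8 ± 0.928 FPKM (log2 fold change -0.99, adjusted p = 1.19e-07). Zfp36, whose protein speeds the decay of early mRNAs, fell from 165.1 ± 3.07 to 87.4 ± 3.2 FPKM (log2 fold change -0.91, adjusted p = 3.16e-07), and Ier3 had a log2 fold change of -0.74 (adjusted p = 0.00229). The phosphatase genes Dusp2 (1.06 ± 0.26 against 0.189 ± 0.0139 FPKM, log2 fold change 1.16, adjusted p = 0.000509), Dusp4 (0.98, adjusted p = 0.000277) and Dusp5 (0.97, adjusted p = 0.000111), which switch off MAP kinases, rose, as did Rgs1 (0.84, adjusted p = 0.00176). Being low, Dusp2 had a log2 fold change of 0.78 with a pseudocount of 1, 1.98 with 0.1 and 2.37 with limma-voom. Dusp1, named after its values were seen because it is a MAP kinase phosphatase gene that is itself an early response gene, fell from 138.8 ± 4.72 to 109.8 ± 1.86 FPKM (log2 fold change -0.34, adjusted p = 9.33e-05).

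The other early effectors are further products of the same early response. Of 26 tested (of 28, Areg and Ereg being too low), 11 rose, 5 fell and 10 were not called (median log2 fold change 0.26). The monocyte chemoattractant gene Ccl2 rose from 9.48 ± 2.04 to 19.5 ± 0.964 FPKM (SD, n = 3 each, log2 fold change 1.02, adjusted p = 0.000452). Thbs1 (0.98, adjusted p = 1.75e-06), a matrix glycoprotein, F3 (0.98, adjusted p = 7.1e-07), tissue factor, and the growth factor gene Hbegf (0.81, adjusted p = 2.52e-05) rose as well. Ccn1, a matricellular gene, fell from 258.3 ± 7.72 to 162.4 ± 2.48 FPKM (log2 fold change -0.67, adjusted p = 7.58e-07). Ptgs2, cyclooxygenase-2 (-0.67, adjusted p = 0.0194), the clock gene Per1 (-0.62, adjusted p = 8.83e-05) and Rhob (-0.18, adjusted p = 0.000515) also fell. The log2 fold change of Rhob was -0.10 with quantile normalization. Ptgs2 was not called without BPVB replicate 1 or 3 or without sham replicate 2 or 3 (adjusted p up to 0.07), and the number that fell was 3 without BPVB replicate 3 or sham replicate 2.

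Of 33 kinases and factors upstream of these genes that were tested, 6 rose, 3 fell and 24 were not called, with a median log2 fold change of -0.01 and no log2 fold change beyond 1. These shares, 18.2% higher and 9.09% lower, were near those of all tested genes given above. Srf, which binds the CArG box, had 25.2 ± 2.03 FPKM in the BPVB group and 25.4 ± 0.483 FPKM in the sham group (SD, n = 3 each, log2 fold change -0.01, standard error 0.0602, adjusted p = 0.918). Creb1, which binds the CRE, had a log2 fold change of -0.21 (adjusted p = 0.074), and its relative Atf1 rose by 0.27 (adjusted p = 0.00531). Both were set beside Srf for the elements they bind. The kinase genes Map2k3 (0.25, adjusted p = 0.00496), Rps6ka1 (0.40, adjusted p = 0.0337) and Map2k7 (0.22, adjusted p = 0.0255) rose, and Map2k6 (-0.40, adjusted p = 0.0483), Map2k2 (-0.26, adjusted p = 0.0151) and the factor gene Mef2c (-0.23, adjusted p = 0.0121) fell. Rps6ka1, Map2k7 and Map2k6 were not called when any 1 of the 6 libraries was left out (adjusted p up to 0.0976, 0.0761 and 0.149), nor was Map2k2 without sham replicate 2 (adjusted p = 0.0562). The number that rose was 3 without BPVB replicate 3, sham replicate 1 or sham replicate 3 and 2 without BPVB replicate 1, BPVB replicate 2 or sham replicate 2, and the number that fell was 1 without sham replicate 2. These are RNA levels, and the activity of the kinases was not measured here.

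Of 13 dimer partners of the members tested, 4 rose, 0 fell and 9 were not called (median log2 fold change 0.24, limma). At an unadjusted p under 0.05, 0 were lower with limma, and limma-voom on the recovered fragments had 1 lower unadjusted and 0 adjusted. Jdp2, a JUN-binding repressor (log2 fold change 0.41, adjusted p = 0.00569), Atf4, the factor of the amino acid response (152.7 ± 2.79 against 123.3 ± 2.96 FPKM, SD, n = 3 each, log2 fold change 0.31, adjusted p = 9.09e-05), and Atf7 (0.24, adjusted p = 0.0296) rose. Atf7 was not called without BPVB replicate 1 or 3 or without sham replicate 1 or 3 (adjusted p up to 0.0938).

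**Figure D4:**
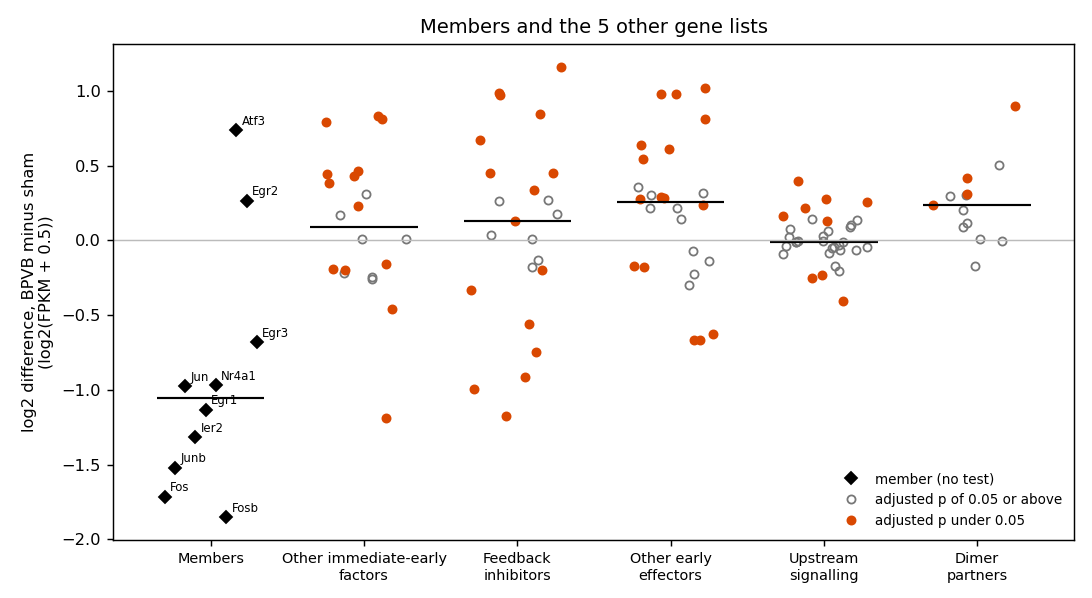
Log2 differences (BPVB minus sham, vertical axis) of the 10 members (black diamonds, named, not tested) and of the tested genes of the 5 other lists, filled orange where the adjusted p was under 0.05 and open where it was not. Horizontal lines are medians, -1.05 for the members and between -0.01 and 0.26 for the other lists; points within a list are spread sideways for visibility.

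The genes whose profile over the 6 libraries was most like the members' mean profile were Pfkfb3, a regulator of glycolysis (Pearson r = 0.9985), Ckb, brain-type creatine kinase (0.9985), Lrig1, a negative regulator of growth factor receptors (0.9982), Kcnk2, a mechanosensitive potassium channel (0.9979), and Ndufs7, a subunit of respiratory complex I (0.9978). All were taken from 11989 genes outside the lists with a mean FPKM of at least 1. Such likeness was common, since 6.63% of those genes had an r above 0.95 over these 6 points, which share the split into 2 groups. Pfkfb3 had 10.8, 10.2 and 11.8 FPKM in the BPVB libraries and 20.2, 20.6 and 19.1 FPKM in the sham libraries. The 8 members that lay lower had an r of 0.957 to 0.992 with the mean profile that they helped to form, against -0.43 for Egr2 and -0.87 for Atf3.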

How the data were processed

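RNA from PV tissue of 3 BPVB and 3 sham rats was sequenced as 150 bp paired-end reads. The authors trimmed, aligned (HISAT) and counted the reads and deposited FPKM values per gene. The submitters' processing notes name HISAT2 2.0.5, StringTie 1.3.3b and featureCounts 1.5.0-p3, and the paper another counter. The genome build, annotation and strand setting are not given in the sources used here. Fragments were recovered from the FPKM values as whole numbers, with whole-number ratios found for 100.0% of genes (tolerance 1e-06 fragments). This gave library totals of 23439506 to 29725808. In simulated data the ratio step recovered 98.0% of genes with at least 50 fragments.

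log2(FPKM + 0.5) was tested, for genes whose FPKM averaged 0.1 or more, with limma 3.58.1 (R 4.3.3, trend, two-sided), with Benjamini-Hochberg adjustment over 15150 genes. The procedure was also run on simulated data of fixed spread in which 200 well-covered genes were changed. That run did not cover changes in low genes or small changes. The smallest p of an exact permutation test of 3 against 3 exceeds 0.05, so none was used. The members and lists were chosen with earlier results of these data known. From each list, called genes with a log2 fold change beyond 1 and the 4 largest rises and falls were named, except 1 that is not reported here. Replicates are separate rats by the methods, and the labels do not pair them.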

Additional observations from a re-analysis of the deposited data

How the results depend on the processing

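Pseudocounts of 0.1 and 1, stricter and looser filters, median-of-ratios, TPM and quantile scaling, robust variance, the replicate number as a block, leaving out each library, and limma-voom on the recovered fragments (chosen after seeing the data) were tried. All 159 values of the 10 members under these alternatives kept their sign. The log2 difference of Egr3 was -1.11 with limma-voom. Of the 35 genes that the naming rule picked from the other lists, 27 were called under every alternative in which they were tested. The median of all genes stayed between -0.01 and 0.06. Same-numbered libraries did not deviate together (correlations 0.0255, 0.0136 and 0.0153, each the highest for its library), so the numbers were not taken as pairs. With the replicate block, 3 upstream genes rose instead of 6, and 2466 of all tested genes rose and 2073 fell, against 2605 and 2170 without it. The other list counts stayed within 1.5 times. With a log2 fold change beyond 1 also required, 0 other immediate-early factors rose and 1 fell, 1 feedback inhibitor rose and 1 fell, 1 early effector rose and 0 fell, 0 upstream genes rose and 0 fell, 0 dimer partners rose, and 340 of all tested genes rose and 156 fell, since fewer genes can pass. Leaving out 1 library each time, with fewer samples, gave 4 to 7 rises and 3 to 5 falls among the other immediate-early factors, 7 to 9 and 7 to 8 among the feedback inhibitors, 9 to 11 and 3 to 4 among the early effectors, 2 to 3 and 1 to 3 among the upstream genes, 3 to 5 rises among the dimer partners, and 2163 to 2232 rises and 1748 to 1901 falls among all genes. Depth was lowest for Egr3, and the BPVB spread of Egr2 (CV 28.3%) exceeded its counting error (7.84%). With 3 rats a group differences near the replicate spread could not be resolved.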
